A study of Rattus norvegicus with 6 samples.

Results

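The genes described here encode the vacuolar proton pump (V-ATPase) and the proteins that bring the growth kinase mTORC1 to the lysosome and regulate it there. They were taken by symbol: every symbol that begins with Atp6v0, Atp6v1 or Atp6ap, and the 21 symbols of Lamtor1 to Lamtor5, the Rag GTPases Rraga, Rragb, Rragc and Rragd, Flcn, Fnip1, Fnip2, the transcription factors Tfeb, Tfe3 and Mitf, the mTORC1 subunits Mtor, Rptor and Mlst8, and Rheb, Tsc1 and Tsc2. The rule found 46 of the 31038 genes listed, 25 of them V-ATPase genes and 21 of them genes of the mTORC1 machinery; Rragb is spelled RragB in the files. RNA sequencing counts came from 6 rat libraries, 3 from cells given an siRNA against eIF3m (title si3m) and 3 from cells given a control siRNA (title siNT). The labels call the cells NRVM, from embryonic rat heart muscle, kept in DMEM with fetal bovine serum; a protocol text also names dexamethasone, isobutylmethylxanthine and insulin, without saying whether these cells received them. eIF3m is a subunit of translation initiation factor 3. Nothing in the labels ties the replicates to different cultures; the p-values below therefore reflect the variation among these libraries, and that variation could be technical.

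The V-ATPase is a rotary machine. Its cytosolic V1 sector splits ATP and turns a central stalk, and its V0 sector in the membrane carries protons into the lysosome, where acid-dependent enzymes work. On the same membrane the Ragulator complex (LAMTOR proteins) anchors the Rag GTPases, which recruit mTORC1 when amino acids are plentiful; folliculin with its FNIP partners acts on the Rag proteins, and Rheb, held in check by the TSC complex, activates the recruited kinase. Active mTORC1 keeps the MiT factors TFEB and TFE3 out of the nucleus, and these factors are known to drive lysosomal genes, V-ATPase genes among them.

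Total counts ranged from 2156186 to 10061575 in the 3 eIF3m siRNA libraries and from 7437285 to 8603602 in the 3 control libraries, the lowest being eIF3m replicate 2. Eif3m itself stood at 91.7, 83.9 and 87.3 CPM in eIF3m replicates 1, 2 and 3, against 137, 136 and 141 CPM in control replicates 1, 2 and 3, so the target was lower in all 3 treated libraries (log2 fold change -0.64 ± 0.05 SE, edgeR quasi-likelihood test, adjusted p = 1.41e-07). CPM are counts scaled to a common library total after TMM adjustment, with no correction for gene length. Of 15 cardiomyocyte markers, 9 lay under 1 CPM in both groups, among them Myh6, Myh7, Ryr2 and Myl2, which goes against the label. For the counts of risen and fallen markers, 17.4% of all 12724 genes tested rose and 21.2% fell at an adjusted p under 0.05. The summed cardiomyocyte list was 235 to 257 CPM in eIF3m libraries and 563 to 580 CPM in control libraries, with 0 risen and 4 fallen of 4 tested. Most of that sum came from 2 expressed markers. Tnnt2 averaged 152 CPM in eIF3m libraries and 365 CPM in controls, and Tnnc1 76.9 and 153 CPM. The smooth muscle and pericyte list summed to 3625 to 3815 CPM in eIF3m libraries and 5628 to 5767 CPM in controls, with 1 risen and 5 fallen of 6 tested. The fibroblast list summed to 16513 to 17291 CPM in eIF3m libraries and 15156 to 15648 CPM in controls, with 5 risen and 1 fallen of 7 tested. Most of that sum was Col1a1, averaging 13232 CPM in eIF3m libraries and 12019 CPM in controls. Of the 5 risen, Dcn and Lum were highest in eIF3m replicate 1. Dcn stood at 55.4, 2.21 and 1.80 CPM in eIF3m replicates 1, 2 and 3, and Lum at 10.3, 3.97 and 2.88 CPM. Skeletal myoblast markers summed to 231 to 258 CPM in eIF3m libraries and 298 to 313 CPM in controls, with 0 risen and 5 fallen of 6 tested. Most of that sum was Cdh15, averaging 201 CPM in eIF3m libraries and 224 CPM in controls. The erythroid list reached 6231 CPM in eIF3m replicate 1, against 230 and 51.2 CPM in eIF3m replicates 2 and 3 and 31.7 to 78.2 CPM in controls, and the endothelial list 185 CPM there, against 34.4 and 31.1 CPM in the other 2 and 37.4 to 48.7 CPM in controls. Macrophage and osteoclast markers summed to 63.2 CPM in eIF3m replicate 1, to 32.7 and 28.3 CPM in eIF3m replicates 2 and 3, and to 32.2 to 35.9 CPM in controls. Adgre1, Aif1, Tyrobp, Acp5, Mrc1 and Itgam were under 1 CPM in both groups. Of the 4 tested macrophage and osteoclast markers 2 rose (Ctsk and Csf1r) and 1 fell (Cd14). Ctsk averaged 8.22 CPM in eIF3m libraries and 3.51 CPM in controls, Csf1r 3.10 and 1.52 CPM, and Cd14 19.0 and 27.0 CPM. The erythroid list had 3 risen and 0 fallen of 3 tested, and the endothelial list 1 risen and 1 fallen of 2. The part of these cell type shifts in the results that follow was not tested. In such bulk samples, fewer cells of a type and less RNA per cell cannot be told apart.

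Most tested genes of the pump and of the lysosomal mTORC1 machinery had lower transcript levels after eIF3m knockdown, and the pump had fallen genes in the membrane sector, the catalytic sector and the accessory proteins. Of the 46 genes, 41 passed the filter on low counts, and 2 rose and 27 fell at an adjusted p under 0.05, so 29 of 41 were called. The background was 38.7% called over all 12724 genes, 17.4% toward higher and 21.2% toward lower values. The median log2 fold change was -0.27 over the 41 genes and 0.01 over all 12724. The libraries of the 2 groups did not overlap for 31 of the 41 genes, 28 with eIF3m below and 3 with eIF3m above, against 48.6% of all genes in either direction. Among the V-ATPase genes 0 rose and 14 fell of 21 tested, with a median of -0.34. Among the genes of the mTORC1 machinery 2 rose and 13 fell of 20, with a median of -0.20. The pump's count stood at 14 in each fit that left out 1 library, eIF3m replicate 1 included. The count of fallen mTORC1 machinery genes was 8 without eIF3m replicate 1 and 9 without control replicate 2. It was 5 with DESeq2, 6 with libraries thinned to the smallest total and 4 on unscaled totals, where the median of all genes moved up by 0.14 on the log2 scale and the pump's count was 11.

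**Figure D1:**
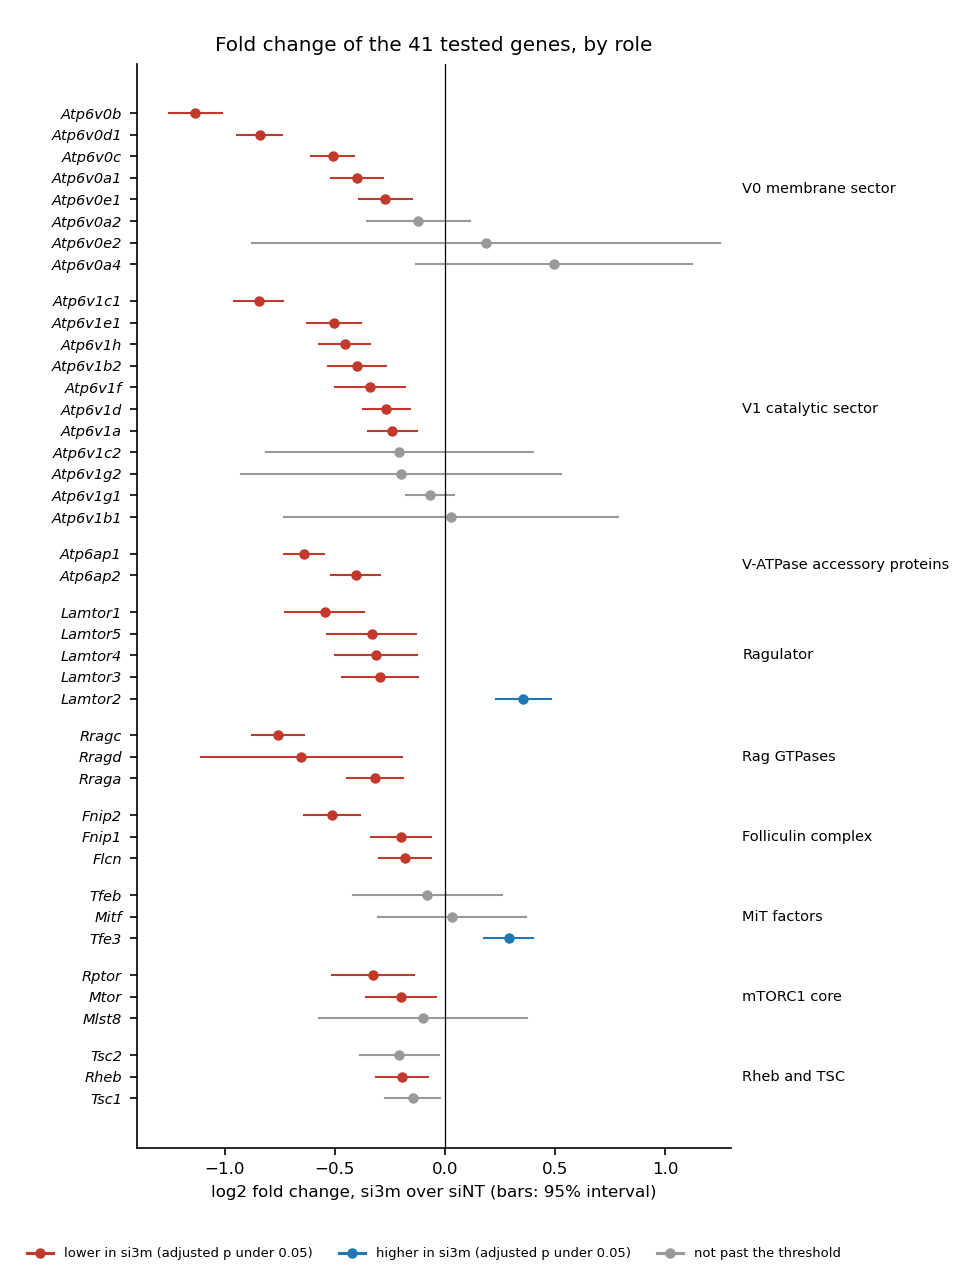
Log2 fold change of eIF3m siRNA over control siRNA (horizontal axis) for the 41 tested genes, grouped by role, with 95% intervals from the edgeR fit; colour marks genes past an adjusted p of 0.05. Points of the pump lie left of 0 from Atp6v0b at -1.13 to Atp6v1g1 at -0.07, except for Atp6v1b1, Atp6v0e2 and Atp6v0a4, whose intervals are wide, and the 2 called genes on the right are Lamtor2 and Tfe3.

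The called genes of the pump were those with the higher counts. Of its 16 genes with a mean of at least 10 CPM over the 6 libraries, 14 fell and 2 did not pass the test, while none of its 5 tested genes under 10 CPM was called, the highest of them averaging 4.28 CPM; the threshold of 10 was chosen after values had been seen. Among all 9144 genes of at least 10 CPM, 18.6% rose and 27.8% fell. The libraries of the 2 groups did not overlap for any of the 14, all eIF3m libraries lying below all controls. The 14 were called on these same libraries, so this separation adds no support to the calls. Of all genes, called or not, 25.3% were separated in that direction. The 4 V-ATPase genes that were not tested were close to silent, with at most 1 count per library for Atp6v0d2, a subunit isoform of osteoclasts, and for Atp6v1g3, and at most 9 and 12 counts for Atp6v1e2 and Atp6ap1l. At these depths 3 counts, taken as the floor, were worth 0.286 to 1.32 CPM in eIF3m libraries and 0.369 to 0.424 CPM in controls, counting error alone.

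**Figure D2:**
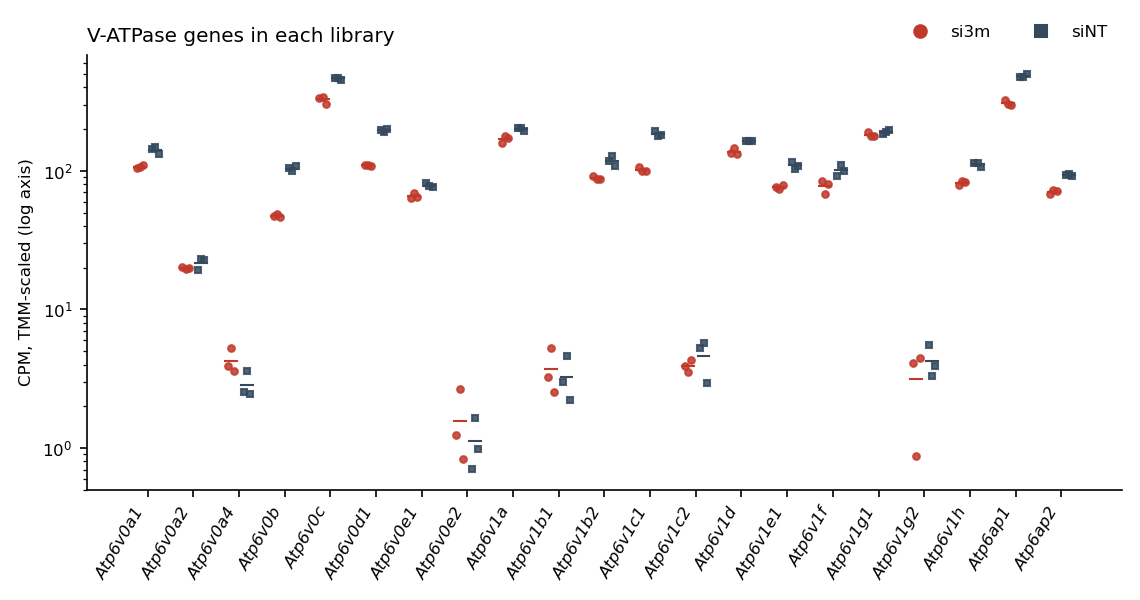
CPM of the 21 tested V-ATPase genes on a log axis, with 1 point per library, eIF3m siRNA (si3m) left and control siRNA (siNT) right, and a line at each group mean. The 14 called genes show separate clouds with eIF3m below, Atp6v1g1 and Atp6v0a2 overlap, and the 5 genes under 10 CPM scatter widely.

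The promoters of these genes were read for the E-box letters CACGTG, the core that MiT factors are known to bind, and for the longer TCACGTGA, part of the CLEAR element described at lysosomal genes. Each motif equals its own reverse complement, so one search covers both strands, and every TCACGTGA also counts as a CACGTG. RefSeq windows of assembly GRCr8 from 250 bases before to 50 after the start matched 35 of the 46 genes by symbol. CACGTG was in 5 of the 35 windows (14.3%) and in 2 of the 20 of V-ATPase genes, against 9.51% of the 9153 windows of tested genes. By call, it was in 5 of the 19 fallen genes with a window and in 0 of the 2 that rose. It was in 0 of the 11 tested genes without a call, and this split by call was not tested. A list of known TFEB and TFE3 targets had it in 10 of 23 windows. TCACGTGA was in 2 of the 35 windows, those of Atp6v0d1 and Atp6v0e1, against 1.84% of tested genes. To show the letters in genes that fell, the stretches around CACGTG that lie before the start and outside the annotated gene are given 5′ to 3′ on the strand of the gene, the CACGTG or TCACGTGA letters in capitals.
Atp6v0d1, chr19:50357265-50357330, minus strand: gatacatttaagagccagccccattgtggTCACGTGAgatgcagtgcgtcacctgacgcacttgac
Lamtor1, chr1:165683907-165683972, plus strand: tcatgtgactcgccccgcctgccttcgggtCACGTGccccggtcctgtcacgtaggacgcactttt
Fnip1, chr10:39068349-39068414, plus strand: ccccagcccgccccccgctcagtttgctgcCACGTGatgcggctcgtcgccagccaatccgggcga
The first base of CACGTG lay 52, 178 and 85 bases before the start in Atp6v0d1, Lamtor1 and Fnip1. The other 2 fallen genes with the letters were Rheb, where they lay 86 bases before the start but inside the annotated span of the gene, and Atp6v0e1, where they began at base 25 after the start. A match describes these windows and is not shown to be a site in these cells, and Atp6v0b, whose transcript fell most, had no CACGTG in its window.

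In the V0 sector 0 genes rose and 5 fell of 8 tested, against 17.4% and 21.2% of all genes. The proteolipids that form the rotating membrane ring fell unequally. Atp6v0b, the c'' proteolipid, stood at 47.5, 49.0 and 46.2 CPM in eIF3m replicates 1, 2 and 3, against 104, 99.0 and 107 CPM in control replicates 1, 2 and 3. The groups were far apart, and the transcript fell by 54.4%, with a log2 fold change of -1.13 ± 0.06 SE (adjusted p = 6.41e-10). Atp6v0c, the c proteolipid and main ring component, stood at 337, 339 and 306 CPM in eIF3m libraries, against 470, 468 and 455 CPM in controls, a fall by 0.51 ± 0.05 SE on the log2 scale (adjusted p = 4.20e-07). Atp6v0d1, the d subunit that couples the ring to the central stalk, stood at 110, 110 and 108 CPM in eIF3m libraries, against 198, 190 and 199 CPM in controls (-0.84 ± 0.05 SE, adjusted p = 2.83e-09). The 3 eIF3m libraries lay close together for this gene, and the groups were far apart. Atp6v0a1, an isoform of the a subunit that lines the proton path, was at -0.40 ± 0.06 SE, and Atp6v0e1, a small membrane subunit, at -0.27 ± 0.06 SE; both passed, and Atp6v0e1 did not pass on unscaled totals (-0.13) or with thinned libraries (-0.12). Atp6v0a2, a paralogue of Atp6v0a1, overlapped between groups and averaged 19.9 ± 0.375 CPM in eIF3m libraries and 21.7 ± 1.98 CPM in controls (SD, n = 3 each), a difference of -0.12 with a 95% interval of -0.35 to 0.11 on the log2 scale. Atp6v0a4, the isoform of kidney, averaged 4.27 ± 0.906 CPM in eIF3m libraries and 2.86 ± 0.620 CPM in controls (SD, n = 3 each) and did not pass (0.49 ± 0.29 SE).

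In the V1 sector 0 genes rose and 7 fell of 11 tested, against 17.4% and 21.2% of all genes. Atp6v1c1, the C subunit that ties the stator stalks together and is known to leave the pump when the sectors come apart, stood at 106, 100 and 99.6 CPM in eIF3m libraries, against 192, 178 and 181 CPM in controls (-0.84 ± 0.05 SE, adjusted p = 6.23e-09). The groups were again far apart. Atp6v1e1, the E subunit of the peripheral stalks, stood at 76.4, 74.2 and 78.9 CPM in eIF3m libraries, against 116, 104 and 108 CPM in controls (-0.50 ± 0.06 SE, adjusted p = 4.89e-06). Atp6v1h, a regulatory subunit, stood at 78.9, 84.3 and 83.4 CPM in eIF3m libraries, against 114, 114 and 107 CPM in controls (-0.45 ± 0.05 SE, adjusted p = 8.36e-06). The catalytic core was lower too. Atp6v1a, the subunit that splits ATP, was at -0.24 ± 0.05 SE and Atp6v1b2, the nucleotide-binding B subunit, at -0.40 ± 0.06 SE. The rotor subunits Atp6v1d and Atp6v1f were at -0.27 ± 0.05 and -0.34 ± 0.07 SE. These 4 passed the test, but Atp6v1a and Atp6v1d did not on unscaled totals (-0.09 and -0.12).

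Atp6v1g1, the G subunit that pairs with the E subunit in the peripheral stalk, did not follow. It stood at 190, 177 and 177 CPM in eIF3m libraries and at 184, 191 and 197 CPM in controls. The groups overlapped, and the difference was -0.07 ± 0.05 SE on the log2 scale (adjusted p = 0.316), with a 95% interval of -0.18 to 0.04; it was 0.076 on unscaled totals. The low isoforms Atp6v1b1, Atp6v1c2 and Atp6v1g2, known from kidney, epithelia and brain, averaged 3.69 ± 1.44, 3.92 ± 0.393 and 3.14 ± 1.96 CPM in eIF3m libraries, against 3.26 ± 1.22, 4.64 ± 1.49 and 4.26 ± 1.13 CPM in controls (SD, n = 3 each), and none of the 3 passed.

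Both tested accessory proteins fell, as did 21.2% of all genes. Atp6ap1, a glycoprotein needed to assemble the V0 sector, stood at 323, 303 and 300.3 CPM in eIF3m libraries, against 478, 471 and 496 CPM in controls (-0.64 ± 0.04 SE, adjusted p = 1.50e-08). Atp6ap2, its partner, also called the prorenin receptor, stood at 68.2, 72.4 and 71.7 CPM in eIF3m libraries, against 93.2, 95.1 and 91.1 CPM in controls (-0.40 ± 0.05 SE, adjusted p = 1.88e-05). Neither gene's groups came near each other.

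In a further list of V-ATPase genes that the rule does not take, 4 rose, 1 fell and 5 did not pass of 10 tested, with a median of 0.19. That was 40% higher and 10% lower, against 17.4% and 21.2% of all genes. Tcirg1, which encodes the a3 isoform of the a subunit found on lysosomes and in osteoclasts, stood at 147, 145 and 158 CPM in eIF3m libraries, against 133, 123 and 138 CPM in controls (0.20 ± 0.06 SE, adjusted p = 0.0127). All 3 eIF3m libraries lay above all controls, but the gene did not pass without eIF3m replicate 3 (0.16) or control replicate 2 (0.14). Rogdi, part of the complex that puts the sectors together, was at 0.63 ± 0.17 SE, and Ncoa7 and Oxr1, TLDc-domain proteins that bind the pump, at 0.60 ± 0.12 and 0.45 ± 0.08 SE; these 3 rose, and Ncoa7 did not pass with libraries thinned to the smallest total (0.49). The member that fell was Wdr7, another assembly protein, at -0.38 ± 0.12 SE, named after its value was seen. Its groups overlapped, at 23.0, 31.4 and 23.4 CPM in eIF3m libraries and 28.4, 30.8 and 36.4 CPM in controls. The Wdr7 call was not followed through the alternatives.

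Ragulator was the one complex of the module with called genes in both directions. Of its 5 tested genes 1 rose and 4 fell, against 17.4% and 21.2% of all genes. Lamtor2 stood at 69.6, 74.6 and 69.3 CPM in eIF3m libraries, against 56.9, 53.0 and 55.3 CPM in controls (0.36 ± 0.06 SE, adjusted p = 1.92e-04). Lamtor3, whose protein forms a heterodimer with that of Lamtor2, stood at 30.3, 34.0 and 32.0 CPM in eIF3m libraries, against 39.8, 38.3 and 38.5 CPM in controls (-0.30 ± 0.08 SE, adjusted p = 0.00887). The partners were called in opposite directions, each with separated groups. Lamtor1, the lipid-anchored scaffold that holds Ragulator on the lysosome, stood at 52.0, 50.3 and 57.7 CPM in eIF3m libraries, against 68.5, 79.3 and 88.0 CPM in controls (-0.55 ± 0.08 SE, adjusted p = 9.99e-05). Its control libraries spread widely but stayed above every eIF3m library. Lamtor4 and Lamtor5, the other heterodimer, were at -0.31 ± 0.09 and -0.33 ± 0.09 SE. Lamtor3 did not pass without eIF3m replicate 1 (-0.25), nor Lamtor5 without eIF3m replicate 1 (-0.24) or control replicate 2 (-0.28), and with DESeq2 or unscaled totals none of Lamtor3 (-0.29 and -0.15), Lamtor4 (-0.31 and -0.17) and Lamtor5 (-0.32 and -0.19) passed. With thinned libraries Lamtor3 (-0.070) and Lamtor4 (-0.34) did not pass.

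All 3 tested Rag GTPases fell, against 21.2% of all genes, and RragB, with at most 6 counts per library, was not tested. Rragc stood at 88.7, 78.6 and 89.2 CPM in eIF3m libraries, against 143, 146 and 150.1 CPM in controls (-0.76 ± 0.06 SE, adjusted p = 4.24e-08). Rraga, whose protein pairs with RagC or RagD, stood at 83.9, 73.7 and 84.3 CPM in eIF3m libraries, against 107, 99.7 and 99.6 CPM in controls (-0.32 ± 0.06 SE, adjusted p = 5.67e-04). Both genes had separated groups. Rragd, a known target of the MiT factors, had few counts, at 4.67, 4.42 and 7.20 CPM in eIF3m libraries, against 8.49, 8.81 and 9.22 CPM in controls (-0.65 ± 0.21 SE, adjusted p = 0.0251). Its call was lost without eIF3m replicate 1 (-0.46) or 2 (-0.59), without control replicate 1 (-0.69), 2 (-0.66) or 3 (-0.63), and with DESeq2 (-0.65), thinned libraries (-0.67) and unscaled totals (-0.51).

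The folliculin complex, which activates RagC and RagD, counted 0 risen and 3 fallen of 3, against 17.4% and 21.2% of all genes. Fnip2 stood at 58.3, 54.8 and 63.5 CPM in eIF3m libraries, against 82.3, 87.7 and 85.4 CPM in controls (-0.51 ± 0.06 SE, adjusted p = 6.97e-06). Its paralogue Fnip1 stood at 70.8, 70.2 and 82.8 CPM in eIF3m libraries, against 85.3, 86.0 and 88.0 CPM in controls (-0.20 ± 0.06 SE, adjusted p = 0.0223), and Flcn at 66.0, 62.3 and 62.3 CPM in eIF3m libraries, against 74.0, 71.0 and 72.1 CPM in controls (-0.18 ± 0.06 SE, adjusted p = 0.0183). Fnip2 alone of the 3 passed under every alternative run. Fnip1 did not pass without eIF3m replicate 1 (-0.12) or 2 (-0.18) or control replicate 2 (-0.21) or 3 (-0.19), nor Flcn without eIF3m replicate 3 (-0.16) or control replicate 1 (-0.17), and neither passed with DESeq2 (-0.20 and -0.18), upper-quartile scaling (-0.13 and -0.11), thinned libraries (-0.11 and -0.17) or unscaled totals (-0.054 and -0.036).

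**Figure D3:**
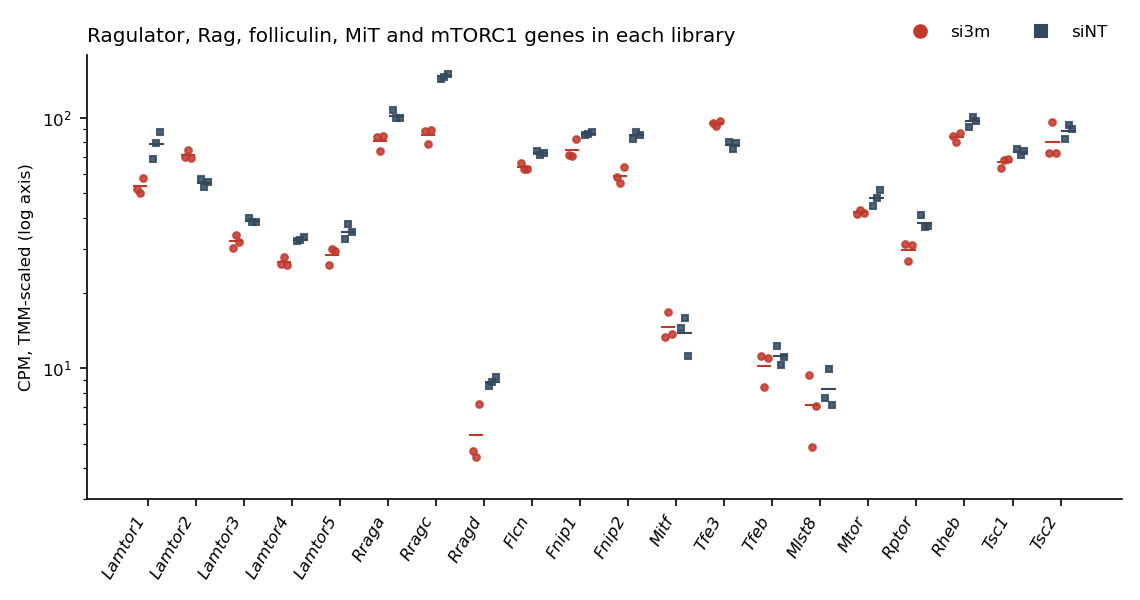
CPM of the 20 tested genes of the mTORC1 machinery on a log axis, with 1 point per library, eIF3m siRNA (si3m) left and control siRNA (siNT) right, and a line at each group mean. Lamtor2 and Tfe3 lie higher in all 3 eIF3m libraries, Rragc and Fnip2 lower with the clearest gaps, and Mitf, Tfeb, Mlst8 and Tsc2 overlap.

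Of the MiT factors 1 rose and 0 fell of 3. Tfe3 stood at 95.2, 93.2 and 96.8 CPM in eIF3m libraries, against 79.9, 74.9 and 79.3 CPM in controls (0.29 ± 0.05 SE, adjusted p = 3.97e-04), with separated groups. Tfeb averaged 10.2 ± 1.56 CPM in eIF3m libraries and 11.2 ± 0.996 CPM in controls, and Mitf 14.6 ± 1.89 and 13.8 ± 2.38 CPM (SD, n = 3 each); neither passed, and their 95% intervals ran from -0.42 to 0.26 and from -0.30 to 0.37 on the log2 scale. In a list of lysosomal genes known as targets of these factors, 0 rose and 25 fell of 28 tested, with a median of -0.86. The list was chosen with earlier results of these data known, and of all genes 17.4% rose and 21.2% fell. Gpnmb, a lysosomal membrane glycoprotein, was at -1.32 ± 0.03 SE, and the cathepsin genes Ctsd and Ctsb at -1.13 ± 0.02 and -1.02 ± 0.02 SE. Only Atp6v0b among the module's genes fell by more than 1 on that scale.

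**Figure D4:**
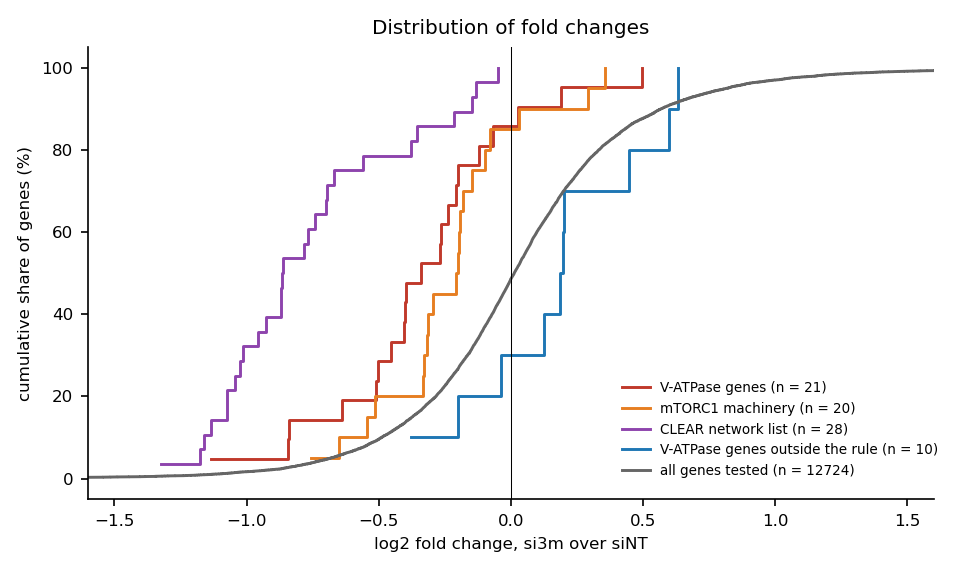
Cumulative share of genes (vertical axis, %) against log2 fold change of eIF3m siRNA over control siRNA, for the V-ATPase genes, the mTORC1 machinery, 2 lists outside the rule and all 12724 genes tested. The curves of the pump (median -0.34) and of the mTORC1 machinery (-0.20) lie between that of the known MiT targets (-0.86) and that of all genes (0.01), and the V-ATPase genes outside the rule lie to the right (0.19).

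Of the kinase complex itself 0 genes rose and 2 fell of 3, against 17.4% and 21.2% of all genes. Rptor, the subunit that recruits substrates, stood at 31.3, 26.9 and 30.9 CPM in eIF3m libraries, against 41.0, 36.8 and 36.9 CPM in controls (-0.33 ± 0.09 SE, adjusted p = 0.00788), and its call was lost on unscaled totals (-0.18) and with thinned libraries (-0.37). Mtor, the kinase, stood at 41.5, 42.8 and 41.9 CPM in eIF3m libraries, against 44.4, 48.1 and 51.4 CPM in controls (-0.20 ± 0.07 SE, adjusted p = 0.0465). Mtor barely passed: its call was lost without eIF3m replicate 1 (-0.18), 2 (-0.21) or 3 (-0.20), without control replicate 2 (-0.20) or 3 (-0.15), and with RLE (-0.19) or upper-quartile scaling (-0.13) or DESeq2 (-0.19), among 14 of 17 alternatives. Mlst8 averaged 7.12 ± 2.29 CPM in eIF3m libraries and 8.24 ± 1.51 CPM in controls and did not pass. Rheb, the activating GTPase, stood at 84.7, 80.4 and 87.1 CPM in eIF3m libraries, against 92.2, 101 and 97.5 CPM in controls (-0.19 ± 0.06 SE, adjusted p = 0.0118), and did not pass with DESeq2 (-0.19), upper-quartile scaling (-0.13) or unscaled totals (-0.049). Its inhibitors did not pass: Tsc1 was at -0.15 ± 0.06 SE (adjusted p = 0.0580) and Tsc2 at -0.21 ± 0.08 SE (adjusted p = 0.0651). Tsc1 passed without eIF3m replicate 3 (-0.19), and Tsc2 without eIF3m replicate 2 (-0.29) or control replicate 1 (-0.26); with no filter on counts both passed (-0.16 and -0.22), and with limma-voom Tsc2 did (-0.24).

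Ratios of counts within a library do not depend on how libraries are scaled against each other. Of 7 paralogue pairs with at least 10 counts in every library, 4 separated the groups, each at an exact permutation p of 0.1 (two-sided), the smallest that 3 against 3 libraries allow, and 0.175 after Benjamini-Hochberg adjustment over the 7. The log2 ratio of Atp6v0a1 to Tcirg1 was -0.48 ± 0.04 in eIF3m libraries and 0.11 ± 0.17 in controls (SD, n = 3 each), a difference of -0.59. The ratio of Atp6v0a1 to Atp6v0a2 differed by -0.28, of Fnip2 to Fnip1 by -0.32 and of Tfe3 to Tfeb by 0.43. The pairs Rragd to Rragc (0.06), Mitf to Tfe3 (-0.20) and Tsc2 to Tsc1 (-0.02) overlapped.

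Partners within a complex were compared in the same way, in pairs chosen after their values were seen and so without a test. The log2 ratio of Lamtor2 to Lamtor3 was 1.20, 1.13 and 1.11 in eIF3m libraries, against 0.52, 0.47 and 0.52 in controls, a 1.56-fold difference. The groups lay far apart, but the 2 genes had already been called in opposite directions, so the gap adds no support to those calls. Atp6v0b to Atp6v0c averaged -2.78 ± 0.05 in eIF3m libraries and -2.17 ± 0.08 in controls, Atp6v1e1 to Atp6v1g1 -1.24 ± 0.07 and -0.80 ± 0.12, and Rragc to Rraga 0.08 ± 0.01 and 0.52 ± 0.09 (SD, n = 3 each). Lamtor4 to Lamtor5 overlapped, at -0.094 ± 0.11 in eIF3m libraries and -0.10 ± 0.09 in controls.

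**Figure D5:**
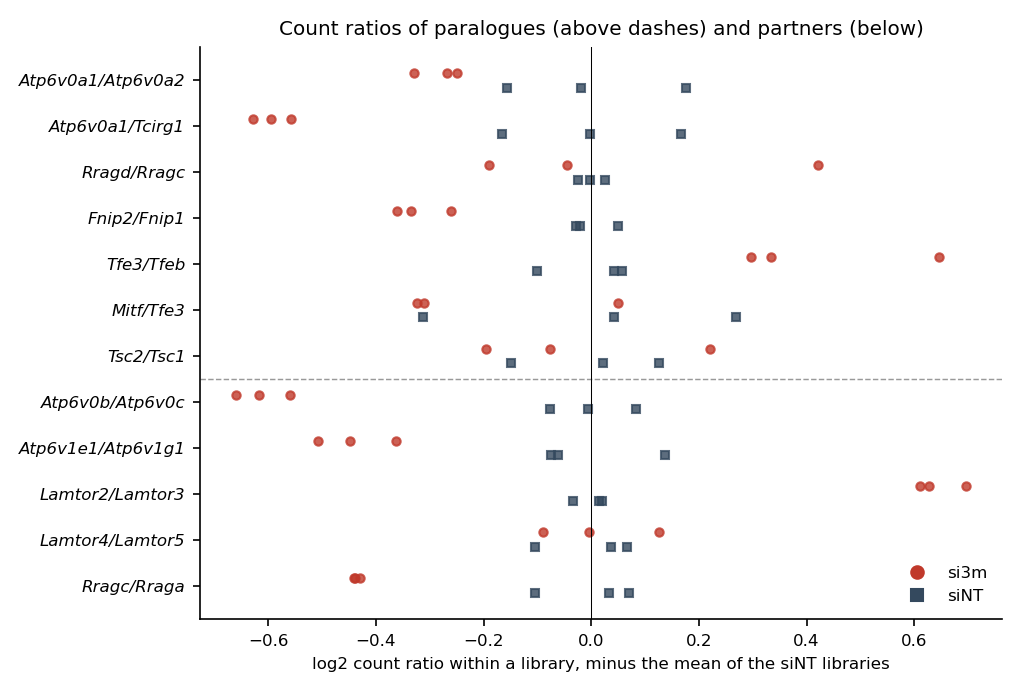
Log2 ratio of the counts of 2 genes within each library, minus the mean of the control (siNT) libraries, for 7 paralogue pairs above the dashed line and 5 partner pairs below it; circles are eIF3m siRNA (si3m) and squares control siRNA (siNT). Lamtor2/Lamtor3 and Tfe3/Tfeb lie right of their controls, while Atp6v0b/Atp6v0c and Atp6v0a1/Tcirg1 lie left of theirs without overlap.

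Around the lysosomal machinery, the lists of upstream genes were mixed. Of all genes 38.7% were called, 17.4% toward higher and 21.2% toward lower values. The called share was 71.4% of the amino acid sensors tested and 9.09% of the GATOR1, GATOR2 and KICSTOR genes. For mTORC1 regulators and mTORC2 partners it was 46.2%, near that of all genes. Of the amino acid sensors 3 rose and 2 fell of 7 tested. Sesn3, a sestrin, of the family that restrains mTORC1 when leucine is short, stood at 184, 176 and 191 CPM in eIF3m libraries, against 101, 94.7 and 83.1 CPM in controls (0.99 ± 0.07 SE, adjusted p = 1.47e-08). Slc38a9, the lysosomal arginine sensor that binds Ragulator, averaged 14.3 ± 0.648 CPM in eIF3m libraries and 22.0 ± 1.36 CPM in controls (SD, n = 3 each; -0.60 ± 0.12 SE, adjusted p = 6.69e-04). Both had separated groups, on opposite sides. Sar1b also fell (-0.25 ± 0.06 SE), though not without eIF3m replicate 1 (-0.20) or on unscaled totals (-0.11). Of GATOR1, GATOR2 and KICSTOR genes, which relay amino acid status to the Rag proteins, 0 rose and 1 fell of 11; that 1 was Wdr59 (-0.24 ± 0.08 SE), a call lost without eIF3m replicate 1 (-0.14) or control replicate 1 (-0.21) or 3 (-0.26), with DESeq2 (-0.23), upper-quartile scaling (-0.18) or thinned libraries (-0.094) and on unscaled totals (-0.099). Of mTORC1 regulators and mTORC2 partners 3 rose and 3 fell of 13, with the mTOR inhibitors Deptor (-0.44 ± 0.07 SE) and Akt1s1 (-0.28 ± 0.06 SE; not called on unscaled totals, -0.13) lower and Ddit4 (0.43 ± 0.10 SE), which acts through TSC, higher.

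Of mTORC1 substrates 0 rose and 1 fell of 9, so 11.1% were called, against 38.7% of all genes. The member that fell was Larp1 (-0.15 ± 0.04 SE), an mRNA-binding protein. Its call was lost without control replicate 2 (-0.14), with upper-quartile scaling (-0.078) or thinned libraries (-0.082) and on unscaled totals (-0.0015). Of genes of lysosome positioning and ion channels 0 rose and 9 fell of 16, with a median of -0.32. The fallen share was 56%, against 21.2% of all genes. Ostm1 and Clcn7, which together form the lysosomal chloride-proton exchanger, were at -1.05 ± 0.10 and -0.73 ± 0.05 SE, and Mcoln1, the lysosomal calcium channel, at -0.52 ± 0.06 SE (adjusted p = 2.72e-06). Over all 7 of these outside lists, 10 genes rose and 42 fell of 94 tested. These were 10.6% and 44.7%, against 17.4% and 21.2% of all genes. Of the 42, 25 were in the list of known TFEB and TFE3 targets.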

How the data were processed

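The authors deposited 1 whole-number count per gene and library; per the submitters' processing notes, Trimmomatic 0.40, HISAT2 2.2.1, featureCounts, DESeq2 and limma were named, with build rn6 and no roles. The sources used here give no strand or multi-mapping setting, which leaves paralogues and overlapping genes uncertain. Tests ran on the counts in edgeR 4.0.16 under R 4.3.3 (filterByExpr with a minimum count of 10, TMM scaling, quasi-likelihood F-test of eIF3m against control siRNA, Benjamini-Hochberg over 12724 genes, two-sided). The 27 symbols turned into dates, 0.203% to 0.216% of each library, were left out. Levels are CPM, which compare libraries and not genes. Alternatives included DESeq2 1.42.0, limma-voom 3.58.1, other scalings and filters, thinned libraries, a replicate block and leaving out each library. The fit was tested on simulated data. One count ratio is not reported here. Members and lists were chosen with earlier results of these data known. Full values are given for called members that moved at least 0.58 (log2), the 3 of lowest p per role and minority directions. In each outside list up to 3 called genes of lowest p are named. Tcirg1, Slc38a9 and Mcoln1 are named too, and most outside genes are given by fold change and SE alone.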

Additional observations from a re-analysis of the deposited data

How the results depend on the processing

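Of the 29 called members, 17 kept their call in each of 17 alternatives (11 of 14 V-ATPase genes and 6 of 15 of the mTORC1 machinery). Scaling mattered most: on unscaled totals the median fold change of all genes moved by 0.14, and by 0.14 when totals excluded the 20 genes of highest count. Over all genes 4126 then rose and 1684 fell on unscaled totals, 4108 and 1685 without the 20 genes, and 1337 and 1796 with thinned libraries. The members called lower numbered 15 on unscaled totals and 15 without the 20 genes. Genes of the mTORC1 machinery called lower numbered 4 on unscaled totals, 4 without the 20 genes, 5 with DESeq2 and 6 with thinned libraries, and 8 to 12 when 1 library was left out; the cause was not tested. Outside genes called higher numbered 16 with upper-quartile scaling, 25 on unscaled totals and 24 without the 20 genes. Members not called changed sign on unscaled totals and without the 20 genes in Atp6v0a2 (0.024 and 0.022), Atp6v1g1 (0.076 and 0.074), Tfeb (0.065 and 0.062) and Mlst8 (0.045 and 0.043), and with thinned libraries in Atp6v1b1 (-0.18), Mitf (-0.012) and Mlst8 (0.047). With 1 library left out Atp6v0e2 ran from -0.092 to 0.59, Atp6v1b1 from -0.19 to 0.37, Atp6v1g2 from -0.39 to 0.0093, Mitf from -0.11 to 0.14 and Mlst8 from -0.35 to 0.043. The ratio Rragd to Rragc ran from -0.12 to 0.19, Tsc2 to Tsc1 from -0.14 to 0.072 and Lamtor4 to Lamtor5 from -0.047 to 0.061. Deviations of same-numbered libraries correlated at -0.0054 to 0.03, against -0.039 to 0.027 for libraries of unlike number. Counting error can hide a shared deviation, so this does not decide whether the numbers pair the libraries. With a replicate block 26 members fell and 2 rose, and the Mtor call was lost (-0.19). The small total of eIF3m replicate 2 limits what can be seen of low isoforms.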

Other observations

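2 relatives of module genes lay outside the rule and were looked up after the results were seen. Rhebl1, the paralogue of Rheb, stood at 12.5, 14.6 and 12.1 CPM in eIF3m libraries, against 10.3, 6.25 and 6.64 CPM in controls (0.73 ± 0.20 SE, edgeR adjusted p = 0.00851), above all controls in 3 of 3 libraries, while Rheb fell. Tfec, the fourth MiT factor, averaged 2.11 ± 1.08 CPM in eIF3m libraries and 3.32 ± 0.893 CPM in controls (SD, n = 3 each) and did not pass (-0.46 ± 0.35 SE).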
